A study of Mus musculus with 4 samples.

Results

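The cytosolic ribosomal protein genes were the symbols listed in both the RNA-seq and the Ribo-seq tables that start with Rps, Rpl or Rplp and a number. Rps6 kinase genes, Rps19bp1, Rpl7l1 and symbols of numbered pseudogenes were left out. The rule found 84 genes of 20714 symbols in both assays, 31 named for the small (40S) and 53 for the large (60S) ribosomal subunit. The study followed transcripts, translation and proteins from the full-grown oocyte to the blastocyst, and the libraries used here are those of the blastocyst. RNA-seq measured poly(A) RNA in 2 libraries, and Ribo-seq measured ribosome-protected fragments (RPFs), the stretches of mRNA that a ribosome shields from nuclease, in 2 libraries. All 4 libraries came from wild-type embryos with no treatment in culture, whose strain is labelled C57BL/6N x PWK. Per the protocols, the mothers were C57BL/6J females of 4 weeks, induced to ovulate with gonadotropins, and the fathers PWK/PhJ, and embryos taken at the 8-cell stage were grown to blastocysts. For Ribo-seq the lysis buffer held 100 µg/ml cycloheximide. No source says that the 2 libraries of an assay came from separate pools of embryos, so p-values measure only the spread between these samples, which may be technical. The libraries were made from whole embryos after removal of the zona pellucida, so fewer cells of a type and less RNA per cell cannot be told apart.

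Ribosomal proteins coat the ribosomal RNA of the 2 subunits. The 40S subunit decodes the mRNA, and the 60S subunit joins amino acids and lets the growing chain leave through an exit tunnel. Their genes are among the most expressed of dividing cells, most of their proteins are present in a single copy per ribosome, and mammalian genomes carry many processed copies of them, most of which make no protein. A few copies are expressed genes of their own, such as Rpl39l and Rpl10l, known from the male germline, Rpl3l, known from muscle, and Rps27l, a target of p53.

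Values are FPKM, fragments per kilobase of sequence and per 1000000 mapped fragments. The ribosomal protein genes made up 24.0% and 25.2% of the summed FPKM of the RNA-seq libraries and 25.5% and 24.5% of the Ribo-seq libraries. The steps between low values put the assigned fragments at about 5427274 and 5145337 in RNA-seq, and at about 535781 and 486162 in Ribo-seq. By the same steps, the 81 genes with a coding length held 5.29% and 5.51% of the footprints, with a median gene at about 276 and 259 footprints. Trophectoderm markers were present in every library (Krt8 at 1078 and 838 FPKM in RNA-seq, Krt18 at 1757 and 1754), as were the inner cell mass markers Pou5f1 (70.1 and 28.6 FPKM in RNA-seq) and Nanog (69.8 and 28.1), which differed between the RNA-seq replicates, while Sox2 was at 0.889 and 0.682 FPKM in RNA-seq and at 37.1 and 35.4 FPKM in Ribo-seq. Of the 9 markers of oocyte or cumulus, blood and fibroblast cells, the highest value was 1.92 FPKM, of Zp3.

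The ribosomal protein genes covered a wide range of levels in both assays. mRNA levels had a median of 1286 and 1375 FPKM in the 2 RNA-seq libraries, against 7.98 and 8.07 FPKM over the 8327 genes with a mean of at least 1 FPKM in each assay. RPF levels had a median of 2035 and 2128 FPKM, against 25.3 and 23.8 FPKM over the same genes. Rpl3l was listed at 0 in every library, and the other 83 genes were above 0 in every library. Replicates lay close: the median difference between the 2 libraries of an assay was 0.13 on the log2 scale for mRNA and 0.11 for RPF, against 0.27 and 0.48 over all genes tested.

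**Figure D1:**
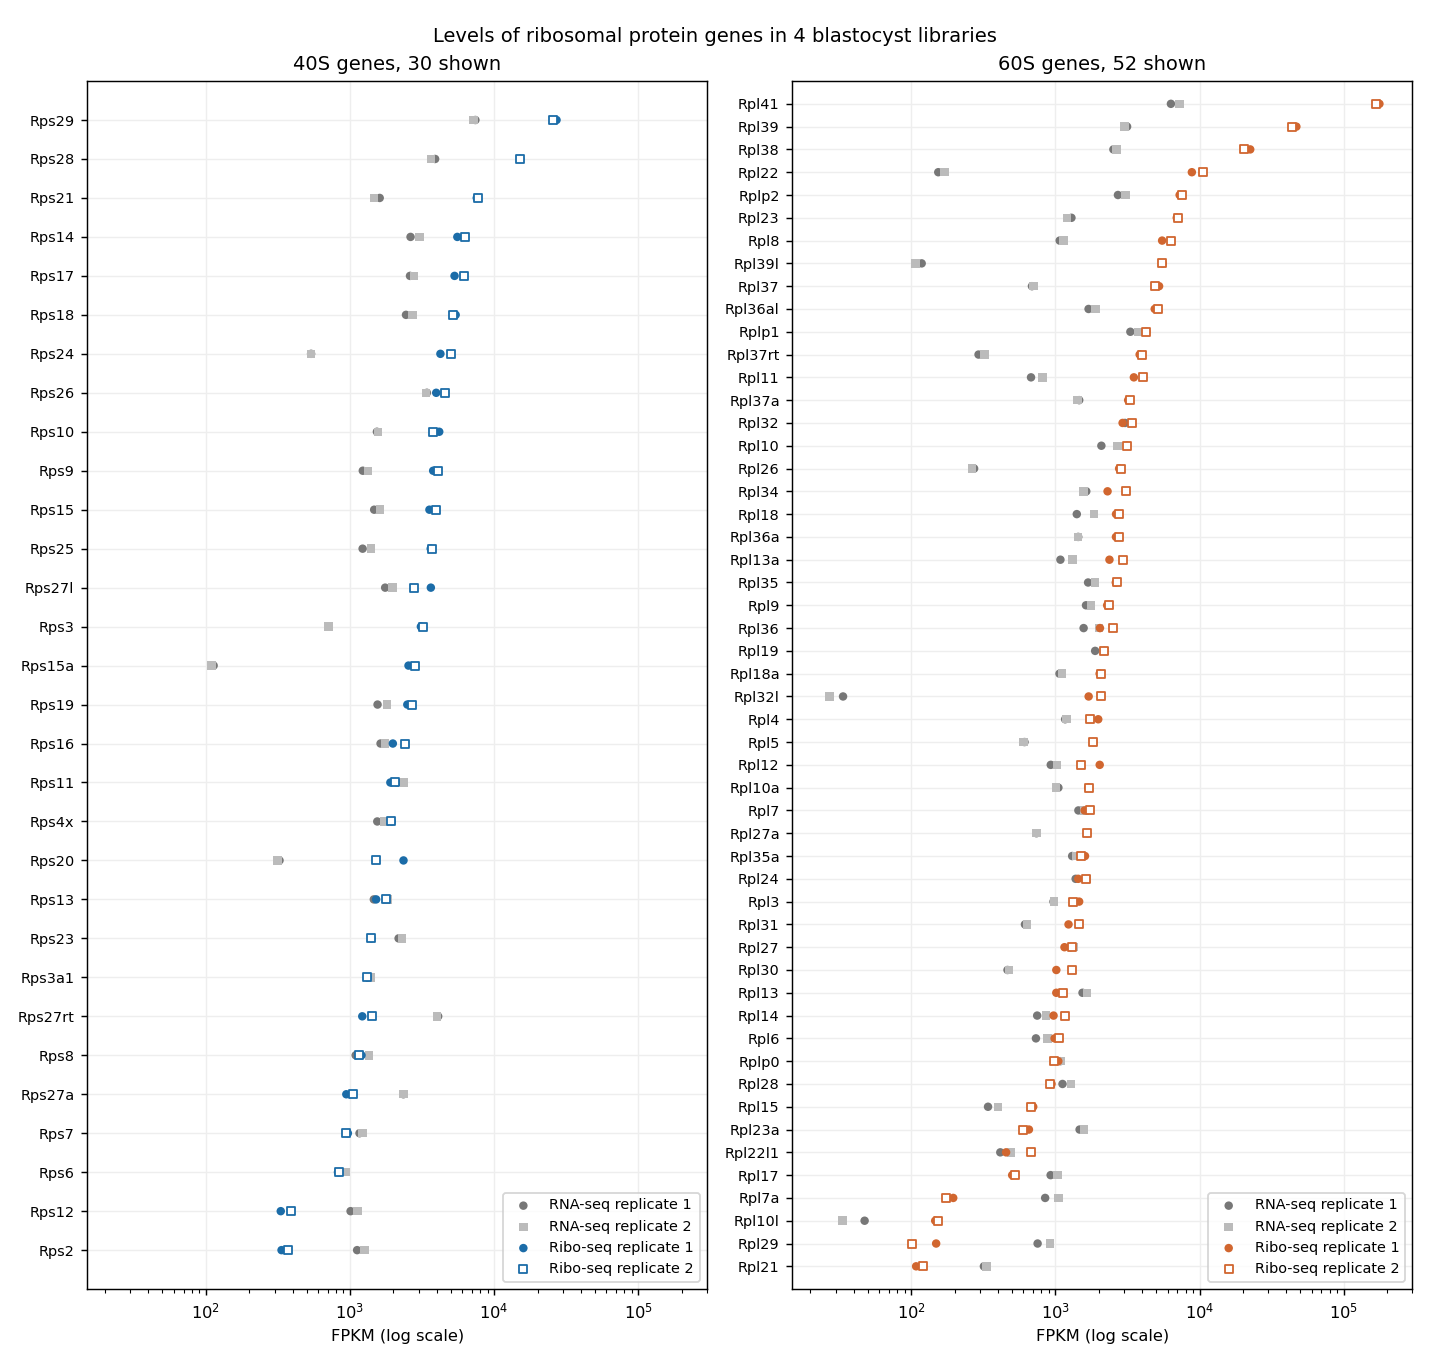
Levels of 82 of the ribosomal protein genes listed above 0, 1 row a gene, 40S genes on the left and 60S genes on the right, ordered by mean RPF. The horizontal axis is FPKM on a log scale; grey symbols are the 2 RNA-seq libraries and coloured symbols the 2 Ribo-seq libraries. Rpl41 reached 176987 FPKM in Ribo-seq, while Rpl21 and Rpl29 stayed under 150 FPKM.

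Among 40S genes, Rps29, which encodes a small zinc-binding protein, had the highest mRNA level, at 7409 and 7187 FPKM. Rps27rt followed at 4089 and 4028 FPKM, and Rps28 at 3894 and 3661 FPKM. The replicates of these 3 did not overlap. The lowest 40S mRNA levels were those of Rps15a at 113 and 109 FPKM, Rps20 at 324 and 314 FPKM and Rps24 at 537 and 535 FPKM, with no overlap.

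The order changed in Ribo-seq. Rps29 (27073 and 25510 FPKM) and Rps28 (15165 and 15141 FPKM) remained first, but Rps21 came next at 7572 and 7719 FPKM and Rps27rt fell to 1216 and 1418 FPKM. The lowest 40S genes in Ribo-seq were Rps2, a protein near the mRNA entry channel, at 335 and 374 FPKM, Rps12 at 331 and 389 FPKM and Rps6, the substrate of S6 kinase, at 825 and 840 FPKM. The ranges of Rps2 and Rps12 overlapped, and both lay below every other 40S gene.

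Among 60S genes, Rpl41, which encodes the smallest ribosomal protein, had the highest mRNA level, at 6335 and 7257 FPKM. Rplp1, an acidic protein of the stalk that recruits elongation factors, stood at 3315 and 3768 FPKM, and Rpl32 at 3046 and 3406 FPKM, ranges that overlapped. Above Rpl3l, the lowest mRNA levels were those of Rpl32l at 33.7 and 27.2 FPKM and Rpl10l at 47.5 and 33.3 FPKM.

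In Ribo-seq, Rpl41 stood at 176987 and 168473 FPKM, and Rpl39, a protein of the exit tunnel, at 46978 and 43475 FPKM. Rpl38, known for a part in Hox gene translation, stood at 22481 and 20507 FPKM. These are deposited values, in a unit that depends on coding length, as described below for short genes. Above Rpl3l, the lowest were Rpl21 at 108 and 122 FPKM, Rpl29 at 149 and 101 FPKM and Rpl10l at 147 and 154 FPKM. The range of Rpl29 overlapped with those of the other two, while Rpl21 was below Rpl10l in both libraries.

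The stalk proteins differed among themselves. Rplp2 had 2718 and 3069 FPKM in RNA-seq and 7281 and 7570 FPKM in Ribo-seq, above Rplp1 (4274 and 4232 FPKM) in Ribo-seq and below it in RNA-seq. Rplp0, which anchors the stalk to the 60S subunit, was lower than both, at 1083 and 1091 FPKM in RNA-seq and 1048 and 971 FPKM in Ribo-seq.

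The comparison of RPF with mRNA asked how many ribosome footprints each gene had for its transcript level, relative to the other genes of the blastocyst. Each library was centred on its median over the 8327 genes, which removed a shift of 1.502 between the assays, and limma was fitted to log2(FPKM + 1) of all of them. A gene was called where the Benjamini-Hochberg adjusted p over all genes was under 0.05 and the difference at least 1 on the log2 scale. Over all genes tested, 6.65% were called with higher and 5.31% with lower RPF than mRNA. Of the 83 ribosomal protein genes tested, 11 (13.3%) were called higher and 25 (30.1%) lower, and 47 were not called. Their median difference was -0.76, against -0.24 over all genes tested. Of the 83, 61 lay below 0, as did 4858 of the 8327 genes. With all libraries, 58 of the 83 members had a limma p under 0.05 before adjustment, as did 3026 of the 8327 genes. The calls were lost without either RNA-seq library, a fit that leaves a single library in that group. The split of the calls moved with the scaling. With no centring 35 members were called higher and 8 lower (49.4% and 0.781% of all genes tested), and 41 members below 0 turned above it, 5 of which had been called lower with centring. With no filter on low values 49 turned in this way, 13 of which had been called lower with the filter. Higher and lower therefore mean relative to the median of the genes tested. The split was 8 higher and 34 lower with quantile normalization (7.42% and 6.89%). With RPF counted per footprint position, a scale defined with the coding lengths, 3 of 80 were called higher and 41 lower (6.1% and 7.34%).

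**Figure D2:**
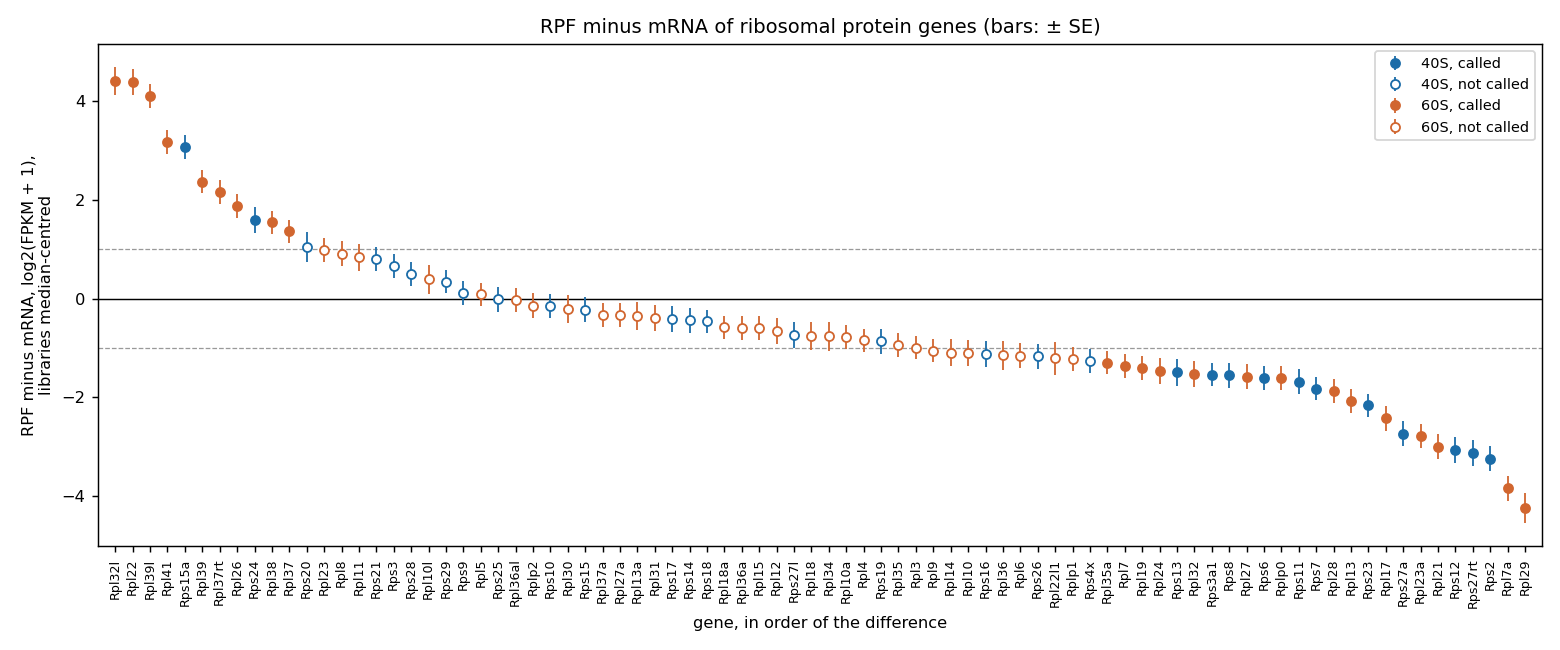
RPF minus mRNA of 82 of the ribosomal protein genes tested, in order of the difference. The vertical axis is the difference of median-centred log2(FPKM + 1) with its limma standard error; filled points were called, open points were not, and dashed lines mark a difference of 1. The differences ran from 4.41 for Rpl32l to -4.25 for Rpl29.

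Of the 5 highest differences, those of Rpl32l, Rpl22, Rpl39l and Rps15a belonged to 4 of the 5 genes with the lowest mRNA above 0, a level that enters the difference itself, and that of Rpl41 to the 60S gene with the highest mRNA. Rpl22, an RNA-binding protein at the surface of the 60S subunit, had 154 and 170 FPKM in RNA-seq and 8851 and 10645 FPKM in Ribo-seq. In Ribo-seq only Rpl41, Rpl39 and Rpl38 were above it among the 60S genes, while its mRNA was among the 5 lowest of the 83 members above 0. The difference was 4.40 ± 0.27 (SE, adjusted p = 0.0140 by limma). Rps15a, a conserved 40S protein, went the same way, from 113 and 109 FPKM in RNA-seq to 2545 and 2822 FPKM in Ribo-seq (difference 3.08 ± 0.25, limma adjusted p = 0.0180). Rpl32l had 33.7 and 27.2 FPKM in RNA-seq and 1702 and 2085 FPKM in Ribo-seq (4.41 ± 0.29, limma adjusted p = 0.0164). Rpl39l had 118 and 107 FPKM in RNA-seq and 5553 and 5509 FPKM in Ribo-seq (4.11 ± 0.24, limma adjusted p = 0.0131). For Rpl41 the difference was 3.17 ± 0.24 (limma adjusted p = 0.0170), but with quantile normalization it was 1.22 and not called (limma adjusted p = 0.0712). RefSeq lists 3 protein accessions for Rpl22, and the part of isoforms in the result was not tested.

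The other genes called higher were Rpl39, Rpl37rt, Rpl26, Rps24, Rpl38 and Rpl37. Rpl26, which lies near the exit tunnel and is known to bind p53 mRNA, had 273 and 265 FPKM in RNA-seq and 2770 and 2838 FPKM in Ribo-seq (1.87 ± 0.24, limma adjusted p = 0.0301). Rps24, a gene mutated in Diamond-Blackfan anaemia, had 537 and 535 FPKM in RNA-seq and 4237 and 4987 FPKM in Ribo-seq (1.596 ± 0.26, limma adjusted p = 0.0408). In none of the 11 did the FPKM ranges of the 2 assays overlap. The same held for 75 of the 84 members, 59 of them with RPF above mRNA, so it does not set the 11 apart. Overlap was read on FPKM without centring, where the median gene already had RPF above mRNA. The share over all genes tested was not counted, so these counts are no result about the members.

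The 5 lowest differences were those of Rpl29, Rpl7a, Rps2, Rps27rt and Rps12. Rpl29, a heparin-binding 60S protein, had 753 and 918 FPKM in RNA-seq and 149 and 101 FPKM in Ribo-seq. Its difference was -4.25 ± 0.30 (limma adjusted p = 0.0166). Rpl7a, a 60S protein that binds rRNA, had 850 and 1056 FPKM in RNA-seq and 196 and 175 FPKM in Ribo-seq (-3.85 ± 0.26, limma adjusted p = 0.0164). For Rps2 the difference was -3.25 ± 0.26 (limma adjusted p = 0.0170), for Rps27rt -3.13 ± 0.26 (0.0185) and for Rps12 -3.07 ± 0.26 (0.0202). Rps27a, made as a fusion with ubiquitin, had 2345 and 2343 FPKM in RNA-seq and 943 and 1045 FPKM in Ribo-seq (-2.74 ± 0.25, limma adjusted p = 0.0225). In each of these genes RPF was below mRNA in FPKM in every library, although the median gene had RPF above mRNA.

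Among ribosomal proteins under other symbols, Fau, Rpsa and Rack1 were not called by limma, with differences between -0.98 and -0.13. Of 78 mitochondrial ribosomal proteins, 2 (2.56%) were called higher and 8 (10.3%) lower, with a median of -0.60. Over all genes tested the shares were 6.65% and 5.31%. Of 6 elongation factors limma called 0, with differences between -0.72 and 0.96. Of these, 3 were at an unadjusted p under 0.05, as were 3026 of the 8327 genes tested. Of 18 assembly and export factors of the ribosome, 2 (11.1%) were called higher (Rrs1 and Nip7) and none lower, with a median of 0.11. These lists were read by their counts alone, and differences between them were not tested.

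The subunits were compared over genes, which are not replicates, so the comparison is a description. The 40S genes had a median of 1546 and 1729 FPKM in RNA-seq, and the 60S genes 1083 and 1143 FPKM. In Ribo-seq the medians were 2498 and 2698 FPKM for 40S and 2029 and 2084 FPKM for 60S genes. On the log2 scale the 40S median was 0.56 above the 60S median for mRNA and 0.46 for RPF, and it stayed above in each library. The median of RPF minus mRNA was -0.87 for 40S and -0.76 for 60S genes, a gap much smaller than the range within either subunit, which ran from -3.25 to 3.08 for 40S and from -4.25 to 4.41 for 60S genes. Of 31 genes for 40S proteins 2 (6.45%) were called higher and 11 (35.5%) lower. Of 52 for 60S proteins 9 (17.3%) were called higher and 14 (26.9%) lower. Over all genes tested the shares were 6.65% and 5.31%. Without the paralogs the gap in RPF shrank to 0.21. Levels of the 40S genes also spread less, with an SD of 1.12 for mRNA and 1.35 for RPF on the log2 scale. The 60S genes had 1.45 and 1.86, but 1.23 and 1.67 over the 49 with a matched coding length.

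Coding length was the second feature. Among the 81 members with a matched coding length, which leaves out Rpl41, the coding sequences ran from 156 bases (Rpl39 and Rpl39l) to 1260 bases (Rpl4), with a median of 456 bases against 1257 bases over the genes tested. The 5 shortest of these were Rpl39, Rpl39l, Rps29, Rps28 and Rpl38, and the 5 longest Rpl4, Rpl3, Rplp0, Rpl5 and Rpl6. Across the 80 tested members with a coding length, RPF fell with length with a Spearman rho of -0.50, mRNA with -0.31 and RPF minus mRNA with -0.36. The median RPF was 6588 FPKM for the 10 genes under 300 bases, 2300 FPKM for the 48 genes of 300 to under 600 bases and 1355 FPKM for the 22 longer ones. The corresponding medians of RPF minus mRNA were 0.66, -0.82 and -1.13. Of the genes under 300 bases 4 were called higher and 1 lower, and of those of 600 bases or more none was called higher and 8 were called lower. Of other genes tested, 43 of 180 under 300 bases were called higher and 1 lower, and 307 and 359 of 6882 at 600 bases or more.

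The deposited unit itself depends on length in this range. Cufflinks divides fragments by an effective length, the number of places where a fragment of the assumed size distribution could start. The steps between low Ribo-seq values were those of fragments of 200 ± 80 bases (mean ± SD), whereas a footprint is about 28 bases, so a coding sequence under 300 bases was left with few assumed places. Dividing instead by the number of 28-base positions lowered the value of Rpl39 and Rpl39l to 0.0980 times the deposited one, that of Rpl38 to 0.195 times and that of Rpl4 to 0.858 times. Only RPF was put on this scale. The mRNA values, which also fell with length (rho -0.31), were left as deposited, and the dependence of their unit on length was not tested. With RPF on this scale the rho of RPF minus mRNA with length was 0.023. The 3 length classes had medians of -1.22, -1.52 and -1.32 on this scale. Other genes tested moved alike, from 0.76 to -0.96 under 300 bases and from -0.28 to -0.21 at 600 bases or more.

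**Figure D3:**
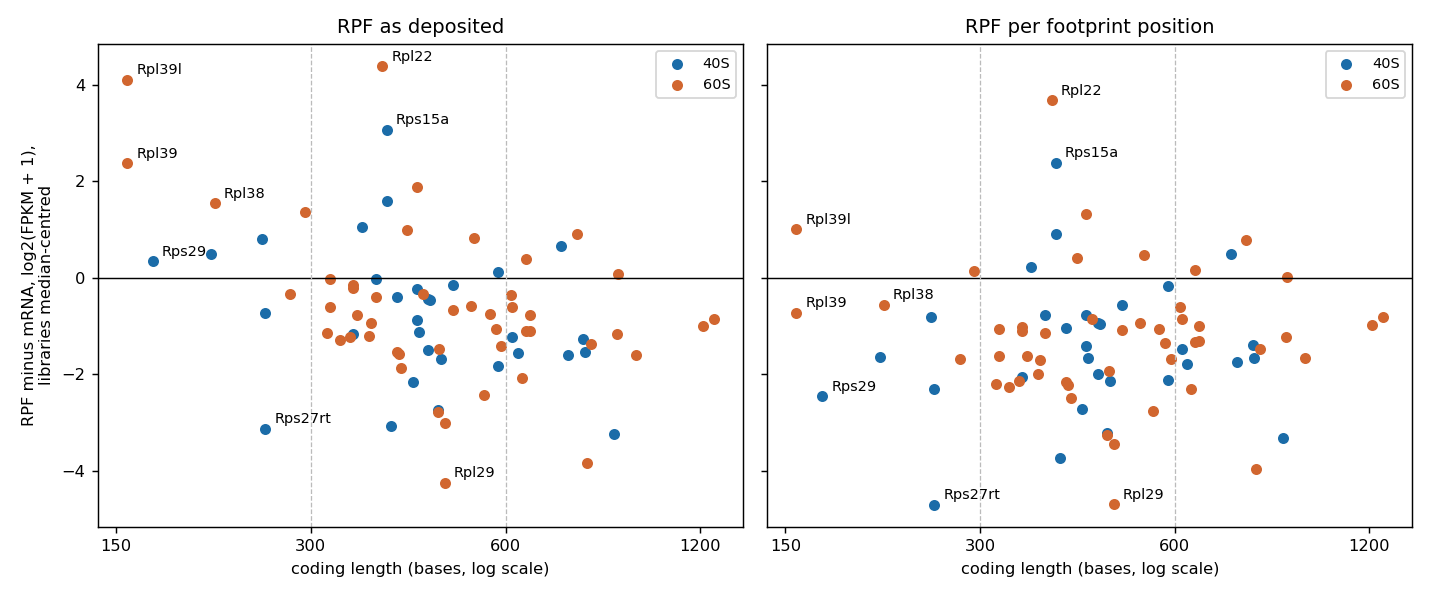
RPF minus mRNA against coding length, in bases on a log scale, for 80 ribosomal protein genes, with the deposited FPKM on the left and RPF per footprint position on the right. The mRNA values are as deposited in both panels. Blue points are 40S and orange points 60S genes, and dashed lines mark 300 and 600 bases. The rise of the shortest genes on the left (rho -0.36) is not seen on the right (rho 0.023), while Rpl22 and Rps15a stay high in both panels.

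Per footprint position, only Rpl22 (3.69, limma adjusted p = 0.0193), Rps15a (2.39, 0.0261) and Rpl26 (1.33, 0.0440) of the 80 were called higher, and all 3 had been called on the deposited values. Rpl39 moved from 2.37 to -0.72 (limma adjusted p = 0.114), Rpl38 from 1.55 to -0.56 (0.175) and Rps29 from 0.35 to -2.45 (0.0261). All 25 genes called lower on the deposited values were called lower on this scale too. The scale multiplied the RPF of members by 0.098 to 0.858, against a median factor of 0.876 for other genes of 600 bases or more. It could hardly raise a member after centring, so the kept lower calls are no separate support. On this scale Rpl22 had the highest mean level of the 81 genes, 4994 FPKM, followed by Rpl8, a core protein of the 60S subunit, at 4530, Rpl39 at 4430 and Rpl38 at 4185. The SD of log2 RPF over the same 80 genes was 1.56 on the deposited values and 1.30 per footprint position, against 1.22 for mRNA. Rpl41, Rpl32l and Rpl37rt matched no coding length in the annotation used, so their footprint positions were not counted and they were left as deposited. How far the deposited unit raised the RPF of Rpl41, which encodes the smallest ribosomal protein, was not tested.

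A feature shared by these genes, and not used to choose them, is how often their coding sequence recurs in the genome. Every 28-base window of each coding sequence was counted in the mouse genome (NCBIM37, both strands, exact matches). In 74 of the 80 tested members with a coding length the median window had more than 1 place, against 721 of 8212 genes tested. The reads had been mapped with at most 20 places allowed. In 4 of the 8 tested genes of the table with over 50% of windows beyond that limit, the gene was a ribosomal protein: Rpl21 (87.7% of windows), Rpl29 (76.1%), Rpl7a (73.5%) and Rps2 (66.4%). These are 4 of the 6 lowest differences named in this comparison. The windows that follow are the ones with the most places in each of these genes, and, for contrast, one window with a single place in Rpl8 and Rpl4. All are printed 5′ to 3′ on the coding strand and lie in coding exons.
Rpl21 (71 places, chr5:147646053-147646080, plus strand): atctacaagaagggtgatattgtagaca
Rpl29 (69 places, chr9:106333448-106333475, plus strand): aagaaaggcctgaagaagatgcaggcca
Rpl7a (82 places, chr2:26767905-26767932, plus strand): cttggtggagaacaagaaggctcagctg
Rps2 (57 places, chr17:24858761-24858788, plus strand): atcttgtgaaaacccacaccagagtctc
Rpl8 (1 place, chr15:76734743-76734770, plus strand): atgggccgtgtgatccgagggcagagga
Rpl4 (1 place, chr9:64022644-64022671, plus strand): ccctcatatcggtgtactccgaaaaggg

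RPF minus mRNA fell as the number of places rose. Across the 80 genes, the Spearman rho of the median number of places was -0.51 with RPF minus mRNA, -0.54 with RPF and -0.069 with mRNA. Per footprint position it was -0.50, and among the 69 genes with no window beyond 20 places -0.33 on the deposited values and -0.35 per footprint position. In classes set after the values were seen, the median difference was -0.024 in the 21 genes with up to 2 places, -0.77 in 28 genes with over 2 to 5, -1.05 in 21 genes with over 5 to 10 and -2.90 in 10 genes with more. In that last class 9 of 10 genes were called lower, the exception being Rpl15 (-0.60 ± 0.25, limma adjusted p = 0.169). Over all genes tested the rho was 0.052. The 41 other genes with over 10 places had a median of 2.21, with 23 called higher and 4 lower. Whether reads at many places were dropped or shared among copies in these values was not tested. Without the 4 genes mostly beyond 20 places, 11 of 79 were called higher and 21 lower (6.55% and 5.21% of the genes tested). Rpl21 and Rpl29 rested on about 16 and 16, and 22 and 14, footprints in the 2 libraries, and Rpl8 on about 1680 and 1753.

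**Figure D4:**
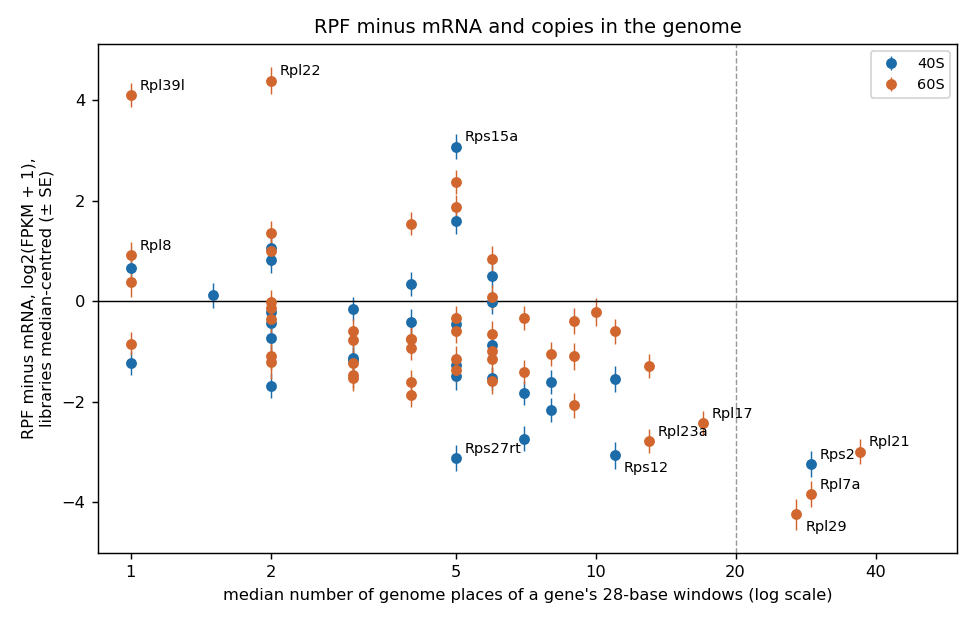
RPF minus mRNA (vertical axis, log2 scale, with limma SE) against the median number of genome places of a gene's 28-base windows (horizontal axis, log scale) for 80 ribosomal protein genes, blue for 40S and orange for 60S. The dashed line marks the 20 places allowed in mapping. The genes with the most places, Rpl21, Rps2, Rpl7a and Rpl29, lie at or below -3.002.

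The paralogs and their partners were described one pair at a time, with no test between genes. Rpl39 on chromosome X has 3 coding exons, and Rpl39l on chromosome 16 has 1. Their coding sequences are shown because 133 of 156 bases are identical, so that 11 of 129 windows of 28 bases in Rpl39 also occur in Rpl39l. Capitals mark the 23 bases that differ between them (GENCODE vM1, 5′ to 3′, coordinates from the first to the last coding exon without the stop codon).
Rpl39 (chrX:34622699-34625122, minus strand): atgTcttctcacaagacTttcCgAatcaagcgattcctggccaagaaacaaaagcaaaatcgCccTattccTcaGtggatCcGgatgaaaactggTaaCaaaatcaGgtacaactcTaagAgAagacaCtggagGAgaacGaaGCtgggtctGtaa
Rpl39l (chr16:10174403-10174555, plus strand): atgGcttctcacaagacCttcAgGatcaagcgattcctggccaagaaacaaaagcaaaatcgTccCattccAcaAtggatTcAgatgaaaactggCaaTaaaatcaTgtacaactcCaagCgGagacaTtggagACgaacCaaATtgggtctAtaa
Rpl39 had 3145 and 3013 FPKM in RNA-seq, 26.6 and 28.2 times Rpl39l. In Ribo-seq it had 46978 and 43475 FPKM, 8.46 and 7.89 times Rpl39l. Both genes have the same coding length, so the ratio in Ribo-seq does not depend on the length scale. Rpl39l rested on about 36.7 and 33.1 footprints. Per footprint position its RPF minus mRNA was 1.01 (limma adjusted p = 0.0663), so it was called on the deposited values and not on this scale.

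Rpl22 and Rpl22l1 stood in opposite order in the 2 assays. Rpl22l1 had 415 and 495 FPKM in RNA-seq, so Rpl22 was at 0.371 and 0.344 times its level. In Ribo-seq Rpl22l1 had 455 and 677 FPKM, and Rpl22 was at 19.4 and 15.7 times its level. No 28-base window is shared by the coding sequences, of which 259 bases of 387 aligned columns are identical. Rpl22l1 was among the least stable between replicates, with a gap of 0.57 on the log2 scale between the Ribo-seq libraries, and its RPF minus mRNA of -1.21 ± 0.34 was not called (limma adjusted p = 0.0896). It was called lower per footprint position (-1.99, limma adjusted p = 0.0408), with quantile normalization (-1.54, 0.0499), with a filter at 10 FPKM (-1.29, 0.0282), with an intensity trend (-1.21, 0.0275) and without Ribo-seq replicate 2 (-1.55, 0.0153).

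Rpl10 was far above Rpl10l in both assays. Rpl10, which joins the 60S subunit last, is on chromosome X with 6 coding exons, and Rpl10l is on chromosome 12 with 1. Rpl10 had 2086 and 2699 FPKM in RNA-seq and 3143 and 3137 FPKM in Ribo-seq, while Rpl10l had 47.5 and 33.3 FPKM and 147 and 154 FPKM. That is 43.9 and 81.1 times in RNA-seq and 21.4 and 20.4 times in Ribo-seq. The pair differs at enough bases (547 of 645 identical) that no 28-base window is shared. Rpl10l was not called (0.39 ± 0.30, limma adjusted p = 0.4002) and had the largest gap between RNA-seq replicates of all members, 0.50 on the log2 scale.

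Rpl36a, also on chromosome X, was below its copy Rpl36al on chromosome 12 in both assays. Rpl36a had 1441 and 1435 FPKM in RNA-seq and 2633 and 2761 FPKM in Ribo-seq. Rpl36al had 1700 and 1901 FPKM and 4891 and 5126 FPKM. The ratio of Rpl36a to Rpl36al was 0.848 and 0.755 in RNA-seq and 0.538 and 0.539 in Ribo-seq, with equal coding lengths and no shared window. Neither was called on the deposited values, with differences of -0.60 ± 0.24 and -0.024 ± 0.25. Per footprint position Rpl36a was called lower (-1.63, limma adjusted p = 0.0357) and Rpl36al was not called (-1.06, 0.0632).

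Rps27rt, an intronless gene on chromosome 9, has a coding sequence identical to that of Rps27 on chromosome 3, so all 228 windows are shared. Rps27 itself is in the RNA-seq tables alone, at 380 and 207 FPKM, and is therefore no member, while Rps27rt carried 4089 and 4028 FPKM. How reads were divided between the 2 genes was not tested, and the value of Rps27rt cannot be told apart from that of Rps27. The coding sequence of Rps27rt is shown with that of the paralog Rps27l, with capitals at the 61 bases that differ between them.
Rps27rt (chr9:114891574-114891825, minus strand): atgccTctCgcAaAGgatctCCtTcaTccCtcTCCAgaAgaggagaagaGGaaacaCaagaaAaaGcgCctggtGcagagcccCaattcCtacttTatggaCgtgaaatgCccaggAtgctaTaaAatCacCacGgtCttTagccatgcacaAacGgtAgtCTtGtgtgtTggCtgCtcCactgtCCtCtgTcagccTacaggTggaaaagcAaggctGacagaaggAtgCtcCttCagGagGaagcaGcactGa
Rps27l (chr9:66793982-66797161, plus strand): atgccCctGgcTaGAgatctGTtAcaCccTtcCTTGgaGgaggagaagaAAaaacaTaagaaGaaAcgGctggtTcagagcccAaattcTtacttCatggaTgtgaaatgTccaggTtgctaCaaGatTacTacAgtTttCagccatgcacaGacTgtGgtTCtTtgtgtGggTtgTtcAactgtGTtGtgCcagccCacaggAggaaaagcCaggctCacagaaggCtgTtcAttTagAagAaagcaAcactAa
Rps27l had 1753 and 1974 FPKM in RNA-seq and 3637 and 2769 FPKM in Ribo-seq. Rps27rt was above it in RNA-seq, at 2.33 and 2.04 times, and below it in Ribo-seq, at 0.334 and 0.512 times. RPF minus mRNA of Rps27l was -0.73 ± 0.26 (limma adjusted p = 0.137), and per footprint position it was -2.31 (limma adjusted p = 0.0265).

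The remaining copies were less informative. Rpl3, at the peptidyl transferase centre, had 971 and 981 FPKM in RNA-seq and 1463 and 1318 FPKM in Ribo-seq, while Rpl3l was listed at 0. Rpl37rt had 293 and 321 FPKM in RNA-seq and 3844 and 3992 FPKM in Ribo-seq (2.17 ± 0.24, limma adjusted p = 0.0263), against 688 and 705 FPKM and 5243 and 4932 FPKM of Rpl37. Rpl32 had 3046 and 3406 FPKM in RNA-seq and 2928 and 3386 FPKM in Ribo-seq. It exceeded Rpl32l 90.4 and 125 times in RNA-seq and 1.72 and 1.62 times in Ribo-seq. Rpl32l and Rpl37rt had no matched coding sequence, so windows shared with Rpl32 and Rpl37 were not counted. How reads were divided within these pairs was not tested. Rps4x, on chromosome X, had 1546 and 1738 FPKM in RNA-seq and 1943 and 1913 FPKM in Ribo-seq, and its copy Rps4l is in the RNA-seq tables alone.

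**Figure D5:**
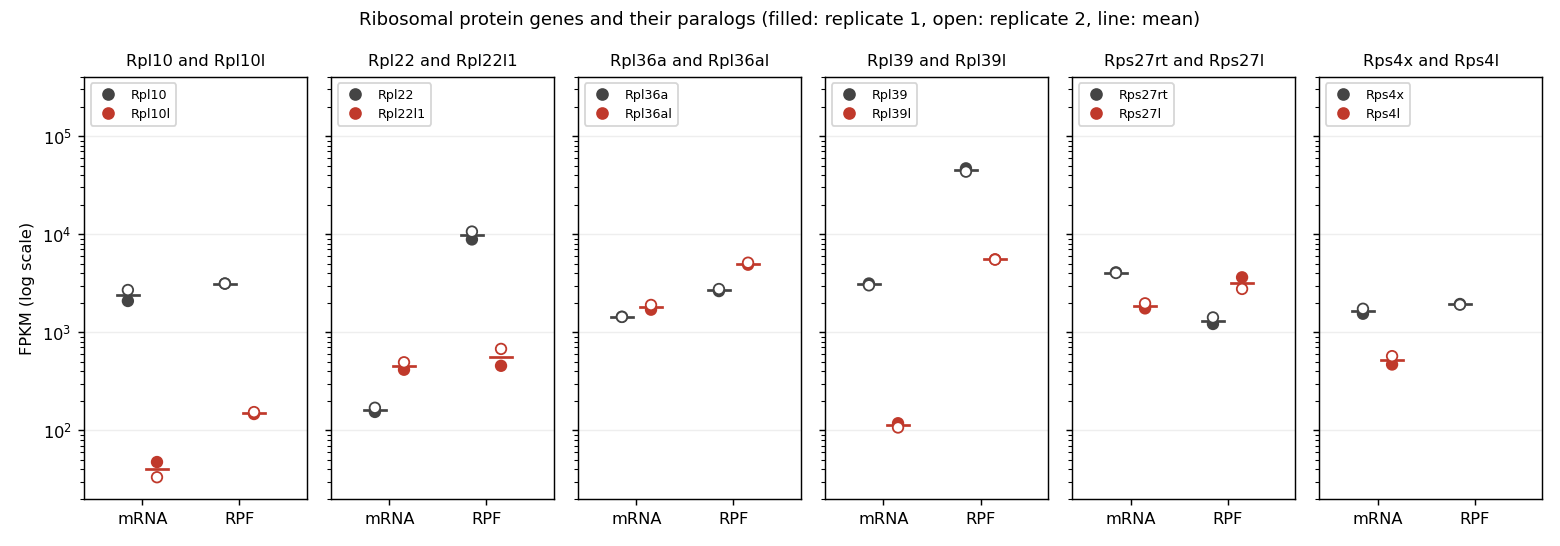
FPKM on a log scale of 6 ribosomal protein genes (grey) and their paralogs (red) in RNA-seq (mRNA) and Ribo-seq (RPF). Filled points are replicate 1, open points replicate 2 and lines the mean; Rps4l has RNA-seq values only. Rpl22 and Rpl22l1, and Rps27rt and Rps27l, change order between the assays.

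The mRNAs of ribosomal proteins are known for a 5′ terminal oligopyrimidine tract, a run of C and T at the start of transcription that couples their translation to growth signals. RefSeq start sites (GRCm38.p6) were found for 64 of the 84 genes, 76 sites in all. A run of at least 8 C or T bases in the window from 10 bases before to 20 after the start was present at 31.6% of these sites, against 11.2% of the 32775 sites of all other genes. The 24 tested genes with such a run had a median RPF minus mRNA of -0.68, and the 39 without it -0.66. Per footprint position, over those with a coding length, the medians were -1.07 and -1.32. The start windows of Rpl32l and Rpl22, at the top of the order of differences, and of Rpl7a and Rps2, near its bottom, are shown, with the longest run in capitals.
Rpl32l (chr10:20208429-20208458, plus strand): aaatgaccagCTTCTTCCTTggtgctgcct
Rpl22 (chr4:152324426-152324455, plus strand): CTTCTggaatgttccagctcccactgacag
Rpl7a (chr2:26910797-26910826, plus strand): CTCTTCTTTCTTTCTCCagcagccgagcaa
Rps2 (chr17:24720053-24720082, plus strand): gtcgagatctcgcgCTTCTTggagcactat
The longest run was 10 bases at Rpl32l, 5 at Rpl22, 17 at Rpl7a and 6 at Rps2, so both long and short runs stood at each end of the order.

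Replicates differed most in 5 genes. In Ribo-seq these were Rps20 (2350 and 1505 FPKM), Rpl22l1, Rpl29 and Rpl34 (2303 and 3114 FPKM), and in RNA-seq Rpl10l. The gap of Rps20 was 0.64 on the log2 scale, and its RPF minus mRNA of 1.053 ± 0.31 was not called (limma adjusted p = 0.0952). Of the 83 genes tested, 12 had a difference of at least 1 in size that was not called.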

How the data were processed

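Blastocyst RNA-seq (Smart-seq2) and Ribo-seq, 2 libraries each, were used as deposited, in FPKM tables that the authors made with Cufflinks 2.2.1 after mapping to mm9 with STAR 2.5.3a (up to 20 places a read). RNA-seq was quantified over transcripts, Ribo-seq over coding sequences. Trimming and rRNA removal used Trim Galore 0.4.2, cutadapt 1.14 and Bowtie2 2.2.2, per the submitters' processing notes.

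log2(FPKM + 1) was centred on each library's median over 8327 genes with a mean of at least 1 FPKM in both assays, and tested with limma 3.58.1 (R 4.3.3) with Benjamini-Hochberg adjustment. In simulated data of those genes, 28.8% of 4-fold, 86.6% of 8-fold and 91.0% of 16-fold differences were recovered. FPKM does not hold the depth, so fragments were inferred from the spacing of low values, of which 83.9% and 84.6% in Ribo-seq were within 0.1 of a whole number. 3 footprints on a 1000-base coding sequence are worth 7.04 and 7.76 FPKM, and more on a shorter one, so FPKM alone does not show the counting error of short members. Members with a coding length had a median of about 276 and 259 footprints, and the lowest above 0 had about 16 and 14. Coding sequences came from GENCODE vM1 (NCBIM37) for 81 of 84 members. Named were all paralogs and partners, the extremes of level, difference, length and replicate gap, genes listed at 0, and genes mostly beyond 20 places. Genes not reported here by name stay in the counts over members. The members and lists were chosen with earlier results of these data known. Alternatives covered the pseudocount, filter, centring, variance trend, replicate block, left-out libraries, footprint positions and left-out members.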

Additional observations from a re-analysis of the deposited data

Results flagged for a closer look

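The symbols of the same name pattern that entered no comparison had RNA-seq signal above the 1.85 and 1.95 FPKM that 3 fragments of a 500-base transcript are worth in the 2 libraries. Of the 9 symbols, 8 are not in the Ribo-seq tables and 7 are -ps symbols left out by the rule. Mean mRNA was 520 FPKM for Rps4l (470 and 571), 462 for Rpl34-ps1, 299 for Rpl14-ps1 and 293 for Rps27 (380 and 207). It was 63.2 FPKM for Rplp2-ps1, 56.0 for Rps15a-ps6, 36.2 for Rpl31-ps12, 15.01 for Rps15a-ps4 and 8.36 for Rps19-ps3. Rpl31-ps12, the one also in the Ribo-seq tables, had 1770 and 2029 FPKM there, against 1234 and 1467 FPKM of Rpl31. How much of this signal came from reads of the member genes was not tested.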

How the results depend on the processing

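Where no cause is given for a change, it was not tested. Over the 8327 genes tested, called higher and lower numbered 308 and 154 with a pseudocount of 0.1, 4113 and 65 with no centring, and 861 and 716 with an intensity trend. With no filter they numbered 5330 and 158 of 20714 genes, and a filter at 10 FPKM gave 670 lower of 3617. Of 83 ribosomal protein genes, 14 were called lower with a pseudocount of 0.1, 38 lower with a filter at 10 FPKM, and 35 higher and 8 lower with no centring. With no filter 44 of 84 were called higher and 6 lower, and per footprint position 3 of 80 higher and 41 lower. Leaving out 1 library at a time gave 0 to 1187 calls higher and 0 to 1647 lower over all genes, and 0 to 13 and 0 to 38 among the ribosomal protein genes, 0 whenever an RNA-seq library was left out and 38 lower without Ribo-seq replicate 2. The lone library of an assay was then assumed to vary like the other assay's.

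With the replicate number as a block, 0 genes were called in either direction, overall and among the members, with 2594 genes and 51 members at an unadjusted p under 0.05. The labels do not say that a number marks a shared pool, the deviations of same-numbered libraries had a correlation of 0.0099 over 8327 genes, and with 2 pairs the block leaves 1 residual degree of freedom a gene. With no filter and with no centring, 3 paralogs that were not called changed sign: Rpl22l1 to 0.66 and 0.29, Rpl36al to 1.84 and 1.48, and Rps27l to 1.135 and 0.77. Rpl36al ranged from -0.11 to 0.047 as libraries were left out. Among all 83 tested members, 49 went from lower to higher with no filter and 41 with no centring. From higher to lower went 6 of 80 per footprint position, Rpl39 and Rpl38 being the 2 called ones, 3 with quantile normalization and 1 with a pseudocount of 0.1. Without RNA-seq replicate 2, 2 went from lower to higher, and no member changed sign under the other alternatives. Rpl10l was called higher with no filter (2.25, limma adjusted p = 0.00556) and with no centring (1.89, 0.0117).

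The 40S minus 60S gap in RPF was 0.29 per footprint position, 0.32 without the members mostly beyond 20 places and 0.21 without paralogs, and 0.30 to 0.37 as Ribo-seq libraries were left out. The gap in mRNA was 0.46 without those members and 0.41 without paralogs. The gap in RPF minus mRNA was -0.42 per footprint position and -0.23 without paralogs, and -0.24 to -0.065 as libraries were left out. The rho of coding length with RPF was -0.20 per footprint position, -0.49 without the members beyond 20 places and -0.48 without paralogs. With RPF minus mRNA it was 0.023 and -0.32 in the first 2 of these. No member symbol is listed more than once, so summing repeated symbols changed nothing for the members.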
